A study of Mus musculus with 6 samples.

Results

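Exonic sense lncRNAs are transcripts that a catalogue lists as non-coding and that overlap an exon of an annotated gene on the same strand. They were taken as every entry labelled exonic_sense in the deposited lncRNA table, which gave 3189 of 24817 listed features. The 6 sequenced libraries, in 2 groups, came from RAW264.7, a macrophage-like cell line of the mouse. All cells received lipopolysaccharide (LPS), the bacterial wall component that triggers inflammatory gene expression, for 24 h and were then moved to medium holding an extract of bone cement. In the 3 LPS_ES_PMMA libraries the cement was polymethyl methacrylate (PMMA) with enoxaparin sodium, a low-molecular-weight heparin. For the 3 controls, titles and treatment labels read LPS_PMMA, while their descriptions and the columns of the table read LPS only, so the plain cement extract in the controls rests on the titles. The labels do not say whether the libraries came from separate cultures, so p-values measure the spread between these libraries, which may be technical.

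A sense exonic lncRNA shares strand and sequence with the gene it overlaps. It can be a separate transcript, a retained intron or a piece of the 3' untranslated region of the messenger RNA, a pseudogene copy, or the host of a microRNA or a small nucleolar RNA. Short reads from the shared stretch fit both transcripts equally well, and a count for such an lncRNA can therefore hold messenger RNA reads of its neighbour or of a related gene.

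Of the 3189 members, 3015 came from the NONCODE catalogue and 174 from Ensembl. They were tied to 2419 genes by the gene column of the table. Of the members, 2527 were tied to a protein-coding gene, 218 to a pseudogene and 122 to a small RNA gene, among them 63 microRNA, 25 small nucleolar RNA and 18 small nuclear RNA entries. By the GENCODE M21 annotation of mm10, the build that the submitters' processing notes name, 3180 overlapped the tied gene and 3186 lay on its strand. The typical member was long and unspliced: 2313 covered their listed span without a gap, and the median length was 1816 nucleotides against 1151.5 in all other features. The listed span of 1111 members lay wholly in exons of the tied protein-coding gene, and that of 1320 lay there to at least 50%. Exons of all annotated transcripts of the gene were counted, with untranslated parts and with transcripts that are not coding, such as retained introns. A narrower measure, limited to exons of coding transcripts on the same strand, was read for 172 Ensembl members with an exon model. Of these, 145 shared no base with such an exon and 27 shared some. The 1111 and 1320 were counted over all members, so both the measure and the set differ and the numbers cannot be compared.

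The sequence overlap was read directly for pseudogene members, whose letters the GENCODE M21 transcripts hold. Of the 218, 16 could be read, 15 of these matched a coding transcript, and 7 matched at 97% identity or more over at least 98% of their length. Printed here are the most abundant member, the member with the largest rise and a less abundant member of the same kind. NONMMUT147944.1, in the pseudogene Gm12918 at chr4:10848699-10849011 (mm10, plus strand), was 100% identical over all 313 bases to the coding sequence of Rpl13, a protein of the large ribosomal subunit. NONMMUT147964.1, in the pseudogene Gm11836 at chr4:14434081-14434322 (plus strand), had 5 mismatches over 239 aligned bases to the coding sequence of Myl6, a myosin light chain. NONMMUT142598.1, in the pseudogene Gm47021 at chr13:12260005-12260264 (minus strand), had 3 mismatches over 260 bases to the coding sequence of Dazap2. Capitals mark bases that differ from the coding transcript, and for NONMMUT147944.1 the first 200 bases, chr4:10848699-10848898, are shown. For NONMMUT147964.1 the aligned bases, chr4:14434081-14434319, are shown without the unaligned end.
NONMMUT147944.1: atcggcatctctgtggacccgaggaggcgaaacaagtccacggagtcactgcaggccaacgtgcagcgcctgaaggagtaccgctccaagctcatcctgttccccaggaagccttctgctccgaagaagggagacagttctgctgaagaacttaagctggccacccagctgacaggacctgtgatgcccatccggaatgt
NONMMUT147964.1: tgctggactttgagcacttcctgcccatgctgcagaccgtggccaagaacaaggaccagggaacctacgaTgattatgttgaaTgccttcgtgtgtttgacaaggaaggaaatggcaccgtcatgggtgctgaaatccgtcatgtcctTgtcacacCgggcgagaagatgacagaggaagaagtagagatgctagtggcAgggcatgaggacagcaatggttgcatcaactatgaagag
NONMMUT142598.1: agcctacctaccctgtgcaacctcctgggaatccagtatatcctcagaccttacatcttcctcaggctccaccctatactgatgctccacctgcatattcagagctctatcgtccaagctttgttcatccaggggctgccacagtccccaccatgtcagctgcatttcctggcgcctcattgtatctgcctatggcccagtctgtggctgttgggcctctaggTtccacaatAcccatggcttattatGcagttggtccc
The first sequence holds no capital, so no read that falls within it can be told apart from an Rpl13 read by its letters.

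Counts over the whole table ranged from 1123551 to 3697638 per library, of which 58381 to 130763 fell in exonic sense members. No pair of replicates differed by as little as sampling noise: chi-square per degree of freedom over members lay between 7.09 and 22.3. Only 2 of 13 macrophage marker genes, Ptprc and Adgre1, had an exonic sense member, with a summed level of 0 to 0.730 FPKM in LPS_ES_PMMA and 0 in every LPS_PMMA library. None of 22 markers of other cell types had one, 0 in all, so the cell type label could not be checked within the class.

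Before any level is read, the positions need a remark. The table also lists transcripts that the authors assembled from the reads, and 266 of these, at 218 genes on 20 chromosomes, matched the length of an annotated transcript at a distance of 11.5 to 1217 kb that several genes of the same stretch shared. Assembled transcripts at their annotated place may have been left out of the table as known, so this count says nothing on stretches without such a distance. The table also names 1 sequence, on 2 lines, that GENCODE M21 does not hold. A member was given a distance where the nearest such transcripts on both sides shared it, which was possible for 942 members (median distance 109 kb) and not for 2247.

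Levels of these 942 members were set beside 3 positions. At the listed position, 4.32% of the 417 members lying to at least 50% in exons of protein-coding genes reached a mean of 10 FPKM (fragments per kilobase of transcript, scaled to library size), and so did 4.44% of the 135 members with no such exon. With each member moved by the distance of its stretch, 19.2% of the 99 members that met exons to at least 50% reached 10 FPKM, against 1.83% of the 437 that met none, and the medians were 1.67 and 0.704 FPKM. Moved as far in the opposite direction, the shares were 5.45% of 55 and 5.16% of 601. Members with an overlap under 50% lay between or above: 7.18% of 390 at the listed position, 6.16% of 406 moved by the distance and 6.29% of 286 moved the other way. Among the 2247 members without a readable distance, 6.77% of 930 with at least 50% exon, 3.27% of 917 with less and 5.75% of 400 with none reached 10 FPKM at the listed position. In these stretches the levels thus differed by overlap at the shifted place more than by overlap at the listed one, which is given as a description with no test. From here on a gene symbol beside a member is the name the table gives it, and the source of its reads was not tested. The reads may have been placed on another build than the one the listed positions belong to, which was not tested, and the count of a member would then come from another place than the one listed.

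**Figure D1:**
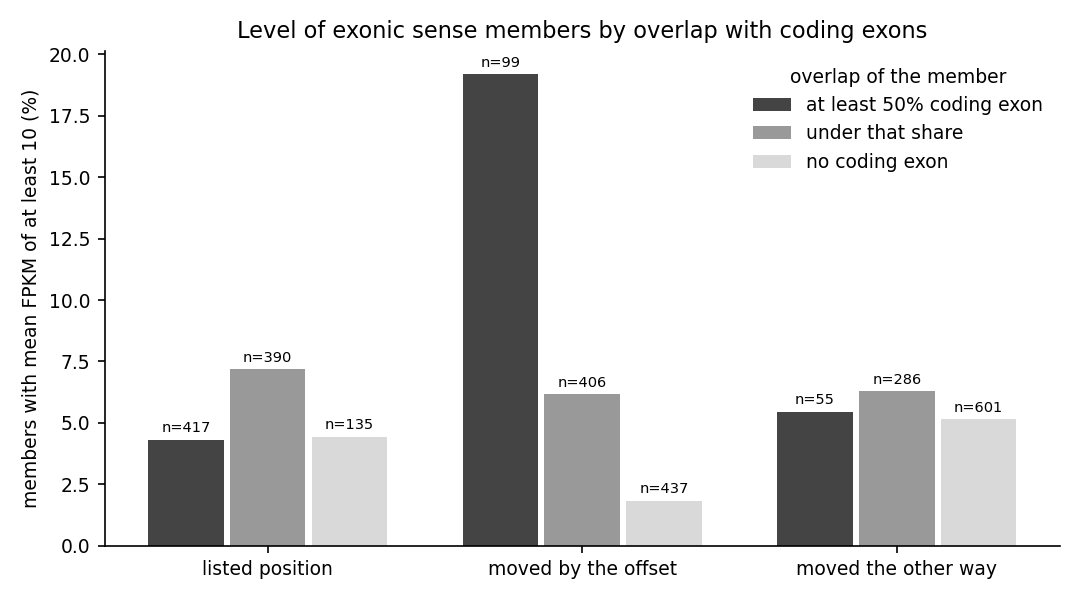
Percent of members with a mean of at least 10 FPKM (y axis) among the 942 members with a readable distance, by their overlap with exons of protein-coding genes at 3 positions (x axis); the number of members stands over each bar. At the listed position the bars for at least 50%, a smaller and no overlap stand at 4.32%, 7.18% and 4.44%. At the position moved by the distance they stand at 19.2%, 6.16% and 1.83%, and moved the other way at 5.45%, 6.29% and 5.16%.

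Most exonic sense members were scarce. The median over members of the mean FPKM was 0.707, with quartiles of 0.220 and 2.09, against 0.896 in all other annotated features. Only 168 members reached 10 FPKM and 1339 reached 1 FPKM. The 194 members whose span met an assembled transcript had a median of 1.53 FPKM, against 0.678 in the rest. By gene type the median was 0.758 FPKM at protein-coding genes, 0.821 at processed pseudogenes, 0.560 at microRNA genes and 1.41 at small nucleolar RNA genes. In all, 1088 members (34.1%) met the span of another listed feature and 670 that of another member.

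The 10 most abundant members held 18.2% to 36.4% of the reads of the class in a library. NONMMUT147944.1, the Gm12918 member with the Rpl13 sequence shown above, had 3061, 3537 and 4091 FPKM in LPS_ES_PMMA replicates 1 to 3 and 3498, 3306 and 3596 FPKM in LPS_PMMA. Its level varied little from library to library, and the groups overlapped. NONMMUT036477.2 at Gtf3c4, a subunit of transcription factor IIIC, had 261, 436 and 732 FPKM against 573, 696 and 309 FPKM, with overlapping groups. NONMMUT031441.2 at the small nuclear RNA gene Gm26244 was present in some libraries only: it had 931, 592 and 0.485 FPKM in LPS_ES_PMMA and 1410, 0.503 and 1.21 FPKM in LPS_PMMA. No group difference could be read from it, since a single control library carried nearly all control reads.

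Next in abundance were NONMMUT047011.2 at the processed pseudogene Gm12481 (mean 327 FPKM), NONMMUT050630.2 at the kinesin motor gene Kif1b (307 FPKM), NONMMUT047974.2 at the mitotic spindle gene Haus6 (225 FPKM), NONMMUT008464.2 at Gm11967 (172 FPKM), NONMMUT041003.2 at the lipid droplet gene Fitm2 (171 FPKM), NONMMUT011291.2 at the autophagy gene Vmp1 (167 FPKM) and NONMMUT054681.2 at Tmem248 (153 FPKM). The listed span of the Gm12481 member also lay to 100% in exons of protein-coding genes, counted without regard to strand. Of the 4 in the top 10 with a readable distance, 3 met exons of another gene at the shifted place. Such a meeting is common, since only 437 of all 942 members with a distance met no exon there. The Kif1b member met exons of Pgd, an enzyme of the pentose phosphate pathway, over 33.7% of its span, the Vmp1 member met Cltc, the clathrin heavy chain, over 59.8%, and the Fitm2 member met Serinc3 over 51.9%. The Gtf3c4 member met none. As listed, the Kif1b, Fitm2 and Gtf3c4 members lay to 100% in exons of the gene named beside them, and the Vmp1 member to 53.4%.

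The Haus6 member had 406, 274 and 297 FPKM in LPS_ES_PMMA and 105, 141 and 127 FPKM in LPS_PMMA. Its groups were apart, but it did not pass (log2 fold change 0.93, SE 0.25, edgeR adjusted p = 0.0812).

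**Figure D2:**
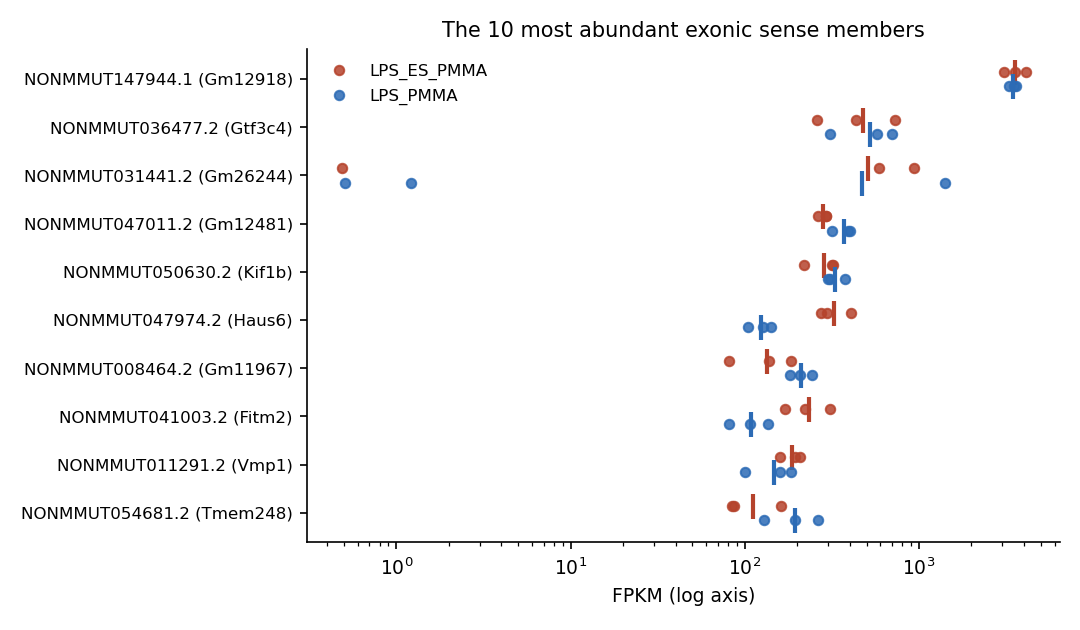
FPKM on a log axis of the 10 members of highest mean level in the 3 LPS_ES_PMMA and 3 LPS_PMMA libraries; dots are libraries, vertical marks are group means, and the name the table gives stands in brackets. The Gm12918 member lies between 3061 and 4091 FPKM in every library, while the Gm26244 member ranges from 0.485 to 1410 FPKM.

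The share of all counts of the table that fell in exonic sense members was 4.01%, 5.20% and 3.13% in LPS_ES_PMMA and 2.18%, 2.61% and 3.12% in LPS_PMMA. The 95% exact binomial intervals, which cover counting error only, were 3.99% to 4.03%, 5.16% to 5.24%, 3.11% to 3.15%, 2.16% to 2.19%, 2.60% to 2.63% and 3.10% to 3.14%. All LPS_ES_PMMA libraries lay above the controls, but the lowest of them and the highest control had overlapping intervals. The means were 4.11% ± 1.03 and 2.64% ± 0.471 (SD, n = 3 each), and the exact two-sided permutation test gave p = 0.1, the smallest that 3 against 3 allows. The difference was 1.48 percentage points, and 0.935 without LPS_ES_PMMA replicate 2 (exact permutation p = 0.2). As a share of annotated features only, with the assembled ones left out, the groups overlapped: 9.44% ± 1.23 against 9.27% ± 0.342 (SD, n = 3 each, exact permutation p = 1).

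**Figure D3:**
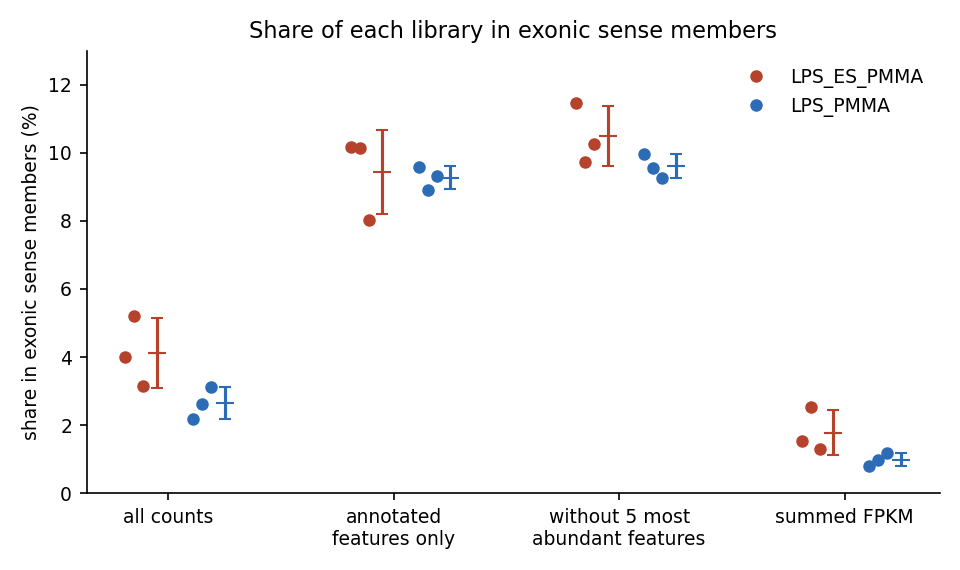
Percent of each library in exonic sense members (y axis) under 4 denominators (x axis), with dots for libraries and marks with bars for the mean and SD of the 3 libraries of a group. The groups are apart for all counts, 4.11% against 2.64%, and overlap among annotated features only, 9.44% against 9.27%.

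The contrast asks which lncRNAs differed when the cement held enoxaparin. Of the 3189 members, 1051 passed the filter on low counts and were tested. The other 2138 had a median of 11 reads over the 6 libraries and at most 606. By edgeR at an adjusted p under 0.05, 37 members (3.52%) differed, beside 4.76% of all 8873 features tested. They split into 17 higher in LPS_ES_PMMA, 1.62% of the members tested beside 2.18% of all features, and 20 lower, 1.90% beside 2.58%. The median log2 fold change of the members tested was 0.09, and that of all features was 0.03. All 37 were apart between groups in CPM (counts scaled to 1e+06 reads of a library). So were, in all, 169 members tested with every LPS_ES_PMMA library above the controls (16.1%, beside 16.2% of all features) and 146 with every one below (13.9%, beside 14.6%). At an unadjusted p under 0.05 there were 229 of the 1051 members tested. The share of all features at that level was not read, so this count cannot be set beside the other features.

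The scaling of the libraries changes which members pass. With column totals in place of TMM factors, the median of all features tested rose to 0.82 on the log2 scale, and 38 members split into 31 higher and 7 lower. With the library totals that the FPKM values imply it was 0.46, with 29 higher and 7 lower. Of all features tested, 4.17% and 3.88% were called under these scalings. Of the 37, 24 passed under each of them, and all 37 kept their direction. Without any 1 of the 6 libraries, 6 to 19 members were called, and the share of all features called was 0.479% to 1.30%. That share was 4.76% with all 6 libraries, so calls fell among all features too. Of the 37, 24 passed in none of those 6 fits. The 4 that passed in all 6 were the members at Gm11836, Gosr1, AW011738 and Gm38074.

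**Figure D4:**
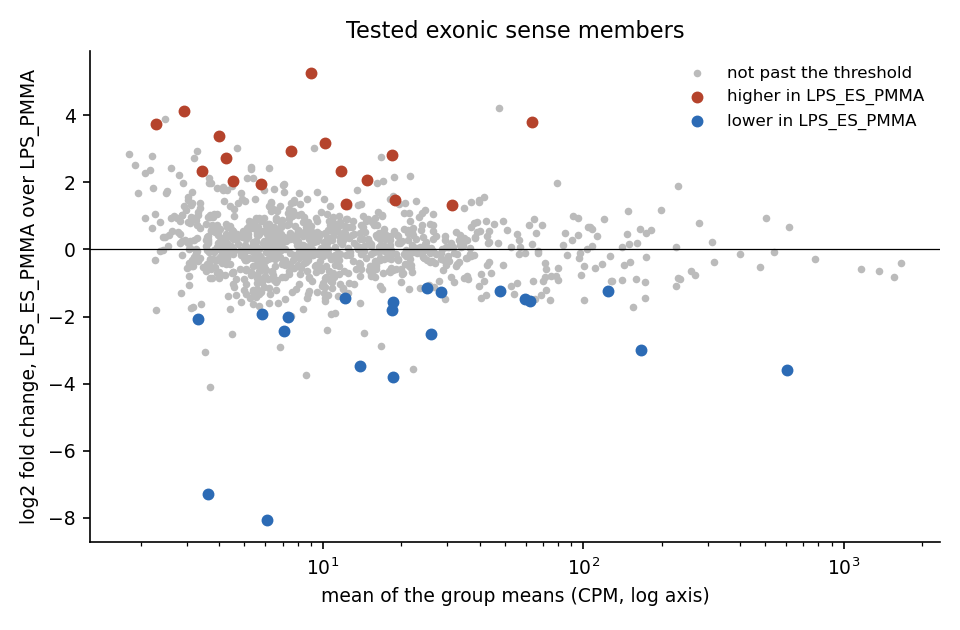
Log2 fold change of LPS_ES_PMMA over LPS_PMMA (y axis) against the mean of the group means in CPM (log axis) for the 1051 members tested; coloured dots passed the threshold, 17 higher and 20 lower. The called member of highest level is the Gosr1 member, at 92.4 and 1119 CPM, and the 2 lowest dots had no read in LPS_ES_PMMA, so that their fitted values depend on the prior count.

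The largest fall at a high level was that of NONMMUT010787.2 (chr11:76737161-76740503, minus strand), listed at Gosr1, a Golgi vesicle fusion protein. It had 98.6, 104 and 74.8 CPM in LPS_ES_PMMA and 1013, 1111 and 1235 CPM in LPS_PMMA. The groups were far apart, at 92.4 ± 15.5 and 1119 ± 111 CPM (SD, n = 3 each), with a log2 fold change of -3.60 (SE 0.28, edgeR adjusted p = 0.00206). Only 0.897% of its listed span lay in Gosr1 exons, and at the distance of its stretch 20.5% met exons of Cpd, which encodes carboxypeptidase D.

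NONMMUT011090.2 (chr11:82951881-82955330), listed at Slfn5, an interferon-inducible Schlafen family gene, had 1.94, 4.56 and 1.35 CPM against 40.8, 31.1 and 32.1 CPM. It was low in all enoxaparin libraries, and its log2 fold change was -3.79 (SE 0.44, edgeR adjusted p = 0.00729). At the shifted place it met no exon of a protein-coding gene. NONMMUT117699.1 at Gm38074 fell from 296 ± 21.6 to 37.0 ± 7.80 CPM (SD, n = 3 each), with an SE of 0.27 on the log2 scale (edgeR adjusted p = 0.00279). NONMMUT148390.1 at AW011738 fell from 25.5 ± 4.74 to 2.31 ± 0.534 CPM (log2 fold change -3.47, edgeR adjusted p = 0.00343). Neither overlapped between groups, and neither lies where a distance could be read.

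A pair of members had no read in any LPS_ES_PMMA library. NONMMUT066321.2 at Gm45449 had 16, 47 and 28 reads in LPS_PMMA, at least 36.7-fold higher there when 3 counts over the enoxaparin group are taken as the floor. Its listed span lay to 98.2% in exons of protein-coding genes, counted without regard to strand. NONMMUT049406.2 at 9930104L06Rik had 24, 15 and 11 reads, at least 21.8-fold higher by the same floor. Their control levels were low, at 12.2 ± 5.60 and 7.22 ± 4.08 CPM (SD, n = 3 each), and edgeR's adjusted p was 0.0157 and 0.0259. The first passed in 3 of the 6 fits that leave out a library and the second in 0, and the sum of the members at 9930104L06Rik did not pass (edgeR adjusted p = 0.173).

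The other fallers among the 10 largest were smaller. NONMMUT046948.2 at Fam214b went from 44.3 ± 5.97 to 7.69 ± 3.49 CPM (log2 fold change -2.51, edgeR adjusted p = 0.0153). NONMMUT001295.2 at Pikfyve, a phosphoinositide kinase of endosomes, went from 11.9 ± 3.33 to 2.25 ± 1.27 CPM (-2.44, adjusted p = 0.0328). NONMMUT022727.2 at Il7r, the receptor chain for interleukin-7, went from 11.9 ± 0.326 to 2.87 ± 1.11 CPM (-2.01, adjusted p = 0.0307). NONMMUT034596.2 at Tnks2, which encodes the poly-ADP-ribosylating enzyme tankyrase-2, went from 9.34 ± 1.22 to 2.38 ± 0.337 CPM (-1.93, adjusted p = 0.0257). The last 3 passed in 0 of the 6 fits that leave out a library. One faller was among the 10 most abundant members: NONMMUT054681.2 at Tmem248 had 95.7, 59.3 and 66.7 CPM against 154, 172 and 200 CPM (log2 fold change -1.24, adjusted p = 0.0468). It too passed in 0 of the 6 fits that leave out a library. In FPKM its groups overlapped, at 161, 86.8 and 84.5 against 128.5, 193 and 263.

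The largest rise was that of NONMMUT147964.1, the Gm11836 pseudogene copy of the Myl6 coding sequence shown above. It had 38, 41 and 67 reads in LPS_ES_PMMA and 1 read in each LPS_PMMA library. The ratio of the scaled group totals was 39.5, with a 95% counting interval of 13.2 to 194, and edgeR's adjusted p was 0.00612. Every enoxaparin library was above every control. A read that falls within the printed stretch and crosses none of its 5 capitals has the same letters as Myl6, and how many reads did so was not tested.

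NONMMUT031416.2 (chr18:9312308-9314888) at Ccny, which encodes cyclin Y, rose at a higher level. It had 140, 78.5 and 139 CPM against 4.42, 9.84 and 10.8 CPM, with groups far apart (log2 fold change 3.81, SE 0.43, edgeR adjusted p = 0.00675). A second Ccny member moved the other way: NONMMUT031419.2 (chr18:9449137-9450003) had 29.9, 20.3 and 34.7 CPM against 73.3, 66.1 and 62.5 CPM (-1.24, adjusted p = 0.0486). That fall passed in 0 of the 6 fits that leave out a library, with edgeR adjusted p of 0.102 to 0.164, while the rise passed in 5. Only Ccny and Klf5 had more than 1 called member, and both Klf5 calls were higher. Among the 127 genes with at least 2 tested members, Ccny was thus the only gene with a member called in each direction. The sum of its 3 members was 153 ± 39.9 and 80.7 ± 3.86 CPM (SD, n = 3 each) and did not pass (edgeR adjusted p = 0.101).

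Among the other large risers, NONMMUT028811.2 at Ergic1, a membrane protein of the route from endoplasmic reticulum to Golgi, had 18.5, 18.2 and 18.9 CPM against 0.983, 1.97 and 2.89 CPM. The enoxaparin libraries were nearly equal, and the log2 fold change was 3.18 (SE 0.39, edgeR adjusted p = 0.00877). NONMMUT020058.2 at Zcchc24 rose from 4.46 ± 2.56 to 32.3 ± 4.45 CPM (2.83, adjusted p = 0.0165). NONMMUT040544.2 at H13, the signal peptide peptidase, rose from 3.79 ± 0.471 to 19.7 ± 1.54 CPM (2.35, adjusted p = 0.00823). At the shifted place the H13 member met no exon of a protein-coding gene, although 96.3% of its listed span is H13 exon.

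The remaining large risers had few control reads. NONMMUT093446.1 at Klf5, a zinc finger transcription factor, had 48 reads against 2 over the groups, a ratio of 19.5 with a counting interval of 5.10 to 165. A second Klf5 member, NONMMUT021981.2, rose from 17.7 ± 2.76 to 44.7 ± 9.13 CPM (log2 fold change 1.33, edgeR adjusted p = 0.0386). At the shifted place both Klf5 members met exons of Bora, a mitotic kinase activator, over 22.7% and 31.7% of their spans. As listed they lay to 49.9% and 46.5% in Klf5 exons. NONMMUT070831.2 at Wdr82, part of a histone methyltransferase complex, had 39 reads against 2 (ratio 15.8, interval 4.09 to 135). Gab2, a signalling adaptor (NONMMUT062810.2), Zfp462 (NONMMUT047336.2) and Cbx5, a heterochromatin protein (NONMMUT025175.2), had log2 fold changes of 3.39, 2.93 and 2.74 with edgeR adjusted p of 0.0417, 0.0416 and 0.0206. Apart from Gab2, which passed in 1 of 6, these members, Wdr82 and NONMMUT093446.1 passed in 0 of the 6 fits that leave out a library.

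**Figure D5:**
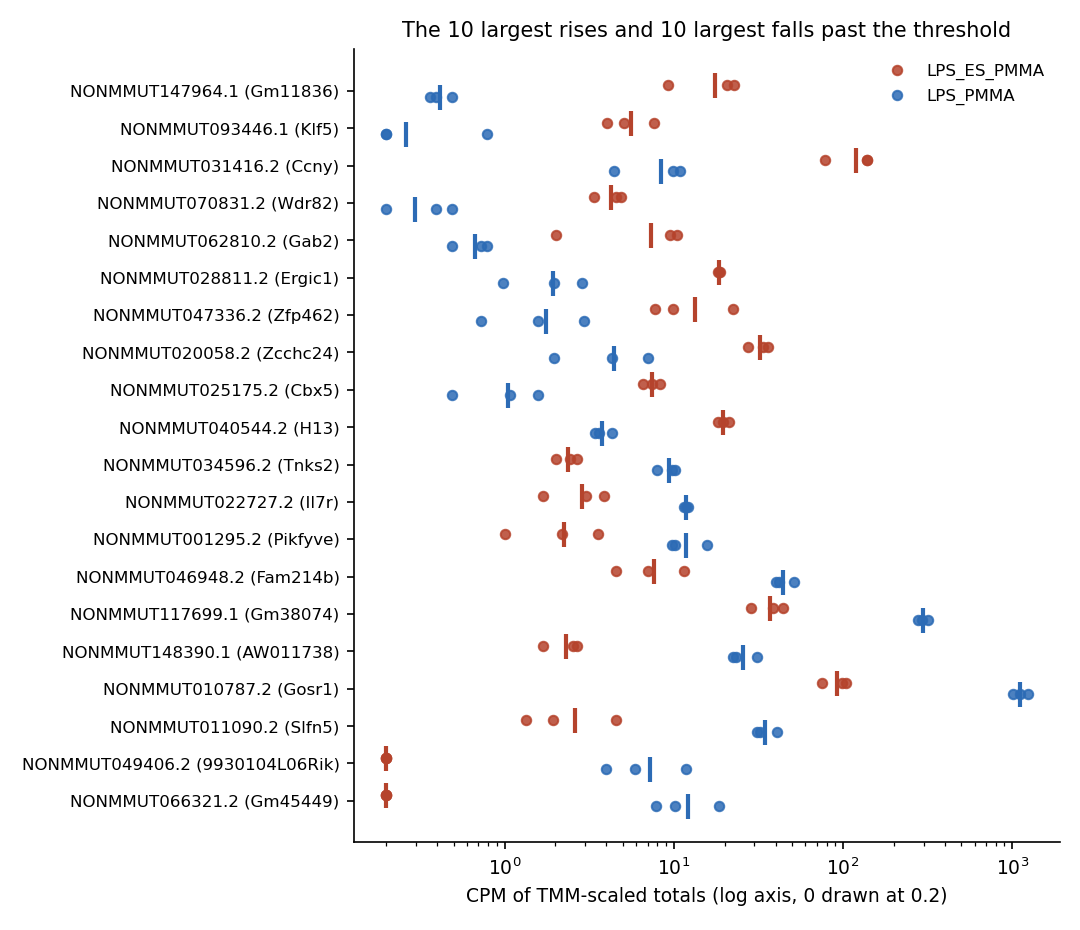
CPM of scaled library totals (log axis, 0 drawn at 0.2) of the 10 members with the largest rise and the 10 with the largest fall past the threshold, 1 per gene; dots are the 3 libraries of a group and vertical marks are group means. In none of the 20 members do the groups overlap, which the choice of members required.

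On chromosome 4, singled out after the values were seen, 11 of 121 members tested were called (9.09%), against 26 of 930 elsewhere (2.80%). Over all features tested the shares were 6.38% of 611 on chromosome 4 and 4.64% of 8262 elsewhere, and no test of the difference was made. Of 315 members tested with a readable distance, 7 were called (2.22%), and of 736 without one, 30 (4.08%).

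Gene lists fixed for macrophages under LPS touched few members through their tied genes, since an lncRNA catalogue holds few entries at any given gene. Of 68 interferon and RIG-I pathway genes, 7 had 9 members. Of these, 3 were tested and 2 were lower: the Slfn5 member above and NONMMUT026433.2 at Parp14, an interferon-inducible ADP-ribosyltransferase. The Parp14 member had 13.8, 14.2 and 19.2 CPM against 32.9, 35.0 and 36.1 CPM (log2 fold change -1.14, edgeR adjusted p = 0.0472) and lost the call without any 1 library. With no more than 3 members tested, these counts describe the members and not the pathway.

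In every other list 0 members passed. The LPS and NF-kB response list had 1 member, NONMMUT011139.2 at the chemokine Ccl4, with a log2 fold change of 0.05 (adjusted p = 0.949), and the M2 activation list had 1 at Ppargc1b (0.23). Of 5 members at NRF2 targets, NONMMUT042943.2 at Slc7a11, the cystine transporter, was the most abundant at 33.4 FPKM. It had 55.4, 137 and 84.6 CPM against 206, 266 and 287 CPM, with groups apart (-1.46, edgeR adjusted p = 0.0676). At stress genes, NONMMUT063653.2 at Nupr1 had 46 reads against 2 (ratio 18.6, interval 4.88 to 159, adjusted p = 0.0577). The largest list was RNA splicing, with 22 members at 19 genes, 11 of them tested, and a median log2 fold change of 0.21. Its most abundant member, NONMMUT047498.2 at Ptbp3, had 193, 2.31 and 89.1 FPKM against 36.5, 85.4 and 112 FPKM, so that 1 enoxaparin library nearly lacked it. NONMMUT040719.2 at Rbm39 had log2 fold change -0.89 (adjusted p = 0.207). Among named lncRNAs, NONMMUT021161.2 at Dleu2, the host of microRNAs 15a and 16-1, had 45.9 FPKM, with a log2 fold change of 0.68 (adjusted p = 0.234).

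The remaining lists gave values of the same kind. The cell cycle list had 1 tested member of 5, NONMMUT058932.2 at Ccnd2, which encodes cyclin D2 (1.12, adjusted p = 0.168), and the macrophage identity list 1 of 5, NONMMUT039756.2 at Mertk, an efferocytosis receptor (1.22, adjusted p = 0.164). The microRNA host list had 1 tested member of 4, at Mir99ahg (0.75), and the glycolysis list 1 of 2, at Pkm (0.25). In the lipid list, NONMMUT034843.2 at Scd1, a fatty acid desaturase, had a log2 fold change of 0.60 (adjusted p = 0.640). None of the 4 snoRNA host members and none of the 2 osteoclast members had enough reads to be tested, 0 in each. The list of markers of other cell types had 0 members.

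Summing the members of a gene removes any division of reads between them. Over 940 gene sums tested, 37 passed (3.94%), 18 higher and 19 lower, beside 4.95% of all 8762 entries of that fit. With column totals the split was 42 higher and 5 lower, and with the implied library totals 27 and 7. Of the 35 genes with a called member, 31 had a called sum. Where a gene has a lone member, the sum is that member, so the agreement was given in advance. Of the 13 genes with a called member and several members in all, 9 had a called sum. Besides, 6 sums passed without a called member. Among these 6, the pair at Snora61, a small nucleolar RNA gene, fell as a sum from 42.6 ± 5.98 to 10.7 ± 1.74 CPM (SD, n = 3 each, log2 fold change -1.99, edgeR adjusted p = 0.0111), and at the distance of its stretch 58.0% of each span met exons of a protein-coding gene. Others were Bcar3, C920009B18Rik, Gm47962 and Gm43198, all named for this count after their values were seen.

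Of 127 genes with at least 2 tested members, 57 had fold changes of both signs, most of members that did not pass, and the median range within a gene was 0.70 on the log2 scale. Differences between members of a gene were not tested. D10Wsu102e had the most members of any gene, 13, of which 4 were tested, with log2 fold changes from -0.05 to 0.95. The most abundant, NONMMUT080570.1 (83.9 FPKM), lay wholly in exons of D10Wsu102e as listed and wholly in exons of Washc4, a subunit of an endosomal actin-regulating complex, at the distance of its stretch. Its groups were equal within the spread, 232 ± 11.7 and 222 ± 38.2 CPM (SD, n = 3 each). The 4 tested members at Ulk2, an autophagy kinase, ranged from 0.14 to 0.93 and the 4 at Mib1, a ubiquitin ligase of Notch signalling, from 0.37 to 2.77. At Mib1 the sum was 269 ± 74.95 and 120 ± 39.6 CPM (SD, n = 3 each, edgeR adjusted p = 0.101). The read counts of its members varied between libraries: NONMMUT031472.2 had 220, 64 and 3 reads against 26, 1 and 1, while NONMMUT031471.2 had 1075, 320 and 564 against 93, 274 and 336.

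The authors' deposited table marks 119 exonic sense members as UP and 56 as DOWN, which is 3.73% and 1.76% of the class, beside 4.33% and 2.49% of all features. In the authors' deposited table, 27 of the UP and 22 of the DOWN members had a q-value under 0.05. Of its UP members 91 passed the filter on low counts and were tested here, and of its DOWN members 36. Of the 37 members called here, 32 carry a mark in the authors' deposited table.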

How the data were processed

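RNA of 6 RAW264.7 libraries (3 LPS_ES_PMMA, 3 LPS_PMMA) was measured, with 1123551 to 3697638 counts each. Groups and replicate numbers came from the titles, and columns were tied to samples by their titles or descriptions. The members, gene lists and rules were chosen with earlier results of these data known.

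The deposited counts are whole reads per transcript, per the file headers. The deposited FPKM values are the authors', per transcript length and library total. The authors also deposited log2 fold changes, a p-value and a q-value per feature, of which only the q-value and the UP or DOWN marks are cited. The lengths are the authors', per the file headers. The submitters' processing notes give mm10 as build; the aligner, the counter and any use of strand are not given in the sources used. No sample column was left unmapped (0).

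Counts were filtered by filterByExpr (minimum count 10, minimum total 15), scaled by TMM and tested without covariates by edgeR's quasi-likelihood method (edgeR 4.0.16, R 4.3.3; limma 3.58.1 and DESeq2 1.42.0 as alternatives), with Benjamini-Hochberg adjustment over all 8873 features and a threshold of 0.05. The fit was run on simulated counts in which all features had the same dispersion (spread between libraries beyond counting noise). Members here differed in spread, so that run does not show how the fit behaves on them. The SE is approximate: the fold change (log2) divided by the root of F. CPM are counts per 1e+06 of TMM-scaled totals; 3 counts in 1 library equal 0.729 to 1.52 CPM. Intervals and floors cover counting error only, since PCR copies carry no molecular identifier and so are not independent. Members sharing a gene were also summed and refitted.

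Distances were read from assembled transcripts longer than 1000 bases whose length met that of a GENCODE M21 transcript within 60 bases and whose distance was shared within 40 bases by at least 2 other genes within 10 Mb. This step and the levels by position were added after seeing the data. Pseudogene sequences come from GENCODE M21 transcripts and were matched with blastn 2.17.0.

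Named members are the 10 largest rises and falls past the threshold (groups apart, higher mean of at least 1 FPKM, 1 per gene), the 10 most abundant, called members and the 2 most abundant of each of 15 lists, the 3 genes with most tested members (ties by summed FPKM) and genes called in both directions. The level of 10 FPKM was set after seeing the data. Alternatives covered scaling, filter, model, pseudocount (0.1, 1), replicate block and each library left out. One item that these rules would name is not reported here.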

Additional observations from a re-analysis of the deposited data

How the results depend on the processing

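Every one of the 37 called members that had a value kept its direction under the 15 alternatives. All 37 had groups apart in CPM, so a fit without 1 library could hardly turn a direction, and this adds little. The count of called members was 54 with DESeq2 and 51 with robust edgeR, and it stayed between 36 and 38 with column totals or the library totals implied by FPKM. Without a filter on low counts it was 13, with a filter of mean FPKM of at least 1 it was 15, and limma on log2(FPKM + 0.1) and log2(FPKM + 1) gave 26 and 57. Leaving out 1 library gave 6 to 19. Of all features tested, DESeq2 called 5.83%, robust edgeR 5.52%, column totals 4.17% and implied totals 3.88%. No filter gave 0.701%, the FPKM filter 1.57%, limma 3.35% and 6.18%, and leaving out 1 library 0.479% to 1.30%. For gene sums, DESeq2 gave 53, robust edgeR 48, column totals 47, implied totals 34, no filter 13, the FPKM filter 18, and limma 31 and 58, with 6 to 18 on leaving out 1 library. The split of calls moved with scaling: 31 higher and 7 lower with column totals, 29 and 7 with implied totals, 19 and 7 and 48 and 9 with limma. For gene sums it was 42 and 5, 27 and 7, 24 and 7 and 49 and 9 in that order. Titles share replicate numbers, but over all features tested same-numbered libraries did not deviate together (correlations -0.02, -0.03 and -0.09). A batch shared by same-numbered libraries at some features would not show in these values and was not tested. With the replicate block, 6 members and 4 gene sums passed, beside 0.462% and 0.502% of all entries tested. The difference in share stayed at 1.48 percentage points (exact sign-change p = 0.25). The share difference was 0.172 points among annotated features, 0.887 without the 5 most abundant features and 0.796 of summed FPKM, and 0.935 to 1.97 on leaving out 1 library. Over the 60 named members tested, 730 values kept their side of the threshold, 146 lost the call, 17 gained it and 0 changed direction past it. Members not called in the main fit keep their side by staying uncalled, so the 730 do not measure how stable the calls were. Of the 37 called members, 6 to 37 kept the call, depending on the alternative. In the main fit the filter on low counts left 2138 members untested, with a median of 11 and at most 606 reads over the 6 libraries.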

Other observations

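Some exonic sense members were present at a high level in some libraries and at a few reads in others of the same group. Among the 168 members with a mean of at least 10 FPKM, 23 (13.7%) spanned more than 20-fold within a group of 3, a limit set after the values were seen. The share was 4.46% of 1099 other annotated features and 12.8% of 870 assembled features at that level. NONMMUT024987.2 at Racgap1, a regulator of cell division, had 637, 2 and 2 reads in LPS_ES_PMMA replicates 1 to 3 and 2, 592 and 587 reads in LPS_PMMA. NONMMUT023069.2 at Mtdh had 2492, 4 and 1434 reads against 2, 741 and 2. NONMMUT060412.2 at Zfp780b had 3, 157 and 800 reads against 6, 891 and 925. The libraries that lacked reads were not the same from member to member, and neither group was spared. The source of these reads was not tested.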
